A study of Mus musculus with 11 samples.

Results

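The circadian clock genes were described in snap-frozen liver of male mice at 14 months of age, taken free of tumour in the knockouts. The genes were Arntl (also called Bmal1), Clock, Npas2, Per1, Per2, Per3, Cry1, Nr1d1, Dbp and Tef, taken as the probe sets that the platform annotation assigns to each symbol alone. Of the 10 genes, 9 had such a probe set, 1 each, among 19938 genes tested, and Npas2 was not analysed here. The groups were mice lacking both Mdr2 and IL-6 (Mdr2-KO/IL6-KO, n = 4 arrays), mice lacking Mdr2 (Mdr2-KO, n = 4) and wild-type mice (n = 3), the 1 group whose own labels name the strain, C57BL/6. Mdr2, encoded by Abcb4, exports phospholipid from hepatocytes to bile, and its loss leads in mice to inflamed ducts, scarring and, with age, tumours. Interleukin 6 is an inflammatory cytokine that acts on hepatocytes. The labels describe housing on a light-dark cycle with chow freely available, but not the hour or feeding state at which livers were taken, nor whether arrays stand for separate animals. Sample names of wild types and knockouts carry different prefixes that the labels do not explain, and a batch behind them cannot be told apart from genotype.

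The targeted gene Abcb4 had a mean log2 level of 8.09 ± 0.204 in Mdr2-KO/IL6-KO and 7.74 ± 0.194 in Mdr2-KO, against 9.83 ± 0.105 in wild type (SD, n = 4, 4 and 3). Neither knockout group overlapped with wild type. Il6 read low in all groups, between 1.85 and 2.05 in Mdr2-KO/IL6-KO, 1.995 and 2.09 in Mdr2-KO, and 1.62 and 1.995 in wild type, so it does not check the IL-6 label.

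The clock is a feedback loop of transcription. Arntl and Clock (or Npas2) pair to switch on genes with E-boxes, among them the Per and Cry repressors, Nr1d1, Dbp and Tef, and Nr1d1 in turn represses Arntl through an element called the RORE. Dbp and Tef act on D-boxes in output genes. In liver this loop drives daily rhythms of metabolic genes, and Arntl peaks at the opposite time of day to Dbp, so a level read once reflects both the gene's amplitude and the hour.

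The windows of Arntl, Per3 and Tef are shown because these genes are among those that varied together, as described further on, and their windows held letters searched for. A window held the 250 bases before and the 50 after a RefSeq start (build GRCm38.p6), and 8 of the 9 measured genes had at least 1. The letters searched, on both strands, were CACGTG and CACGTT (E-box and a variant), TTATGTAA and TTACGTAA (D-box), and TAGGTCA and TGGGTCA (core of the RORE), and capitals mark a match.
Arntl, chr7:113207261-113207560, plus strand: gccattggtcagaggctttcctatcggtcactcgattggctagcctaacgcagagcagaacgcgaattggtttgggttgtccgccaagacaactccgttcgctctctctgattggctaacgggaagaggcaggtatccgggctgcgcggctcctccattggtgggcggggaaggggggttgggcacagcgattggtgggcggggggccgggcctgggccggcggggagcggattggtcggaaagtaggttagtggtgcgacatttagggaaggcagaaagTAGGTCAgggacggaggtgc
Per3, chr4:151044616-151044915, minus strand: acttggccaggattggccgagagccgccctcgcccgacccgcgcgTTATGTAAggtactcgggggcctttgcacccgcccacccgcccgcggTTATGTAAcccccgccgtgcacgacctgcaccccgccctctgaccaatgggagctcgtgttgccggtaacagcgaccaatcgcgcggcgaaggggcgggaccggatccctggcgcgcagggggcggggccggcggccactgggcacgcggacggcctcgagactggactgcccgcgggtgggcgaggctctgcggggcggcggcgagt
Tef, chr15:81811164-81811463, plus strand: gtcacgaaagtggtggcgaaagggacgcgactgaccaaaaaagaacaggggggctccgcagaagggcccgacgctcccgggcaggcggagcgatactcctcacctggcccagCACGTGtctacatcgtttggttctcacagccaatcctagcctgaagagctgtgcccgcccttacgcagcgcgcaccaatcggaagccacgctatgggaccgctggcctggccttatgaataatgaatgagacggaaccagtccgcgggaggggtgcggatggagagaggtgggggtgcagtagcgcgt
The Arntl window held TAGGTCA 31 bases into the transcript, letters found in 2.61% of the 32851 windows of all genes. That of Per3 held TTATGTAA at 2 places, letters found in 0.938% of all windows. Both windows of Tef held CACGTG, as did 1 window of Per1 and that of Cry1, against 7.15% of all windows. The variant CACGTT was found for Cry1 and Nr1d1 (4.68% of all windows), and TTACGTAA and TGGGTCA for no measured clock gene. The windows of Dbp and Clock, and the other windows of Arntl and Per1, held none of the letters. These matches are letters in a window and were not tested as sites.

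No clock gene passed the test of a difference in mean between genotypes, while Dbp and Arntl varied among arrays of 1 genotype more than nearly all other genes. In the linear model of all arrays (limma, Benjamini-Hochberg over all genes), 0 of 9 passed an adjusted p of 0.05 in Mdr2-KO against wild type, where 1.26% of all genes passed (0.948% higher and 0.316% lower). The count was also 0 of 9 in Mdr2-KO/IL6-KO against wild type, where 4.19% of all genes passed (2.91% higher and 1.28% lower), and 0 of 9 in Mdr2-KO/IL6-KO against Mdr2-KO, where 0.00502% passed (1 gene). At an unadjusted p under 0.05 the counts were 0, 1 and 0 clock genes, beside 9.79%, 15.5% and 4.82% of all genes. The first and second comparisons share the wild-type arrays. In whole tissue, fewer cells of a type and less RNA per cell cannot be told apart. The median log2 difference of the 9 was 0.03, 0.01 and -0.02 in these comparisons, against -0.01, -0.00056 and 0.01 over all genes.

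Among the activators, Arntl read log2 levels of 5.81, 6.37, 6.45 and 5.93 in Mdr2-KO/IL6-KO, 4.71, 6.62, 5.83 and 5.94 in Mdr2-KO, and 5.58, 5.74 and 5.27 in wild-type livers, in replicate order. The 4 double-knockout arrays lay above all wild-type arrays, while the Mdr2-KO arrays lay on both sides of them. The mean was 0.61 higher in Mdr2-KO/IL6-KO than in wild type (95% interval -0.10 to 1.31, adjusted p = 0.421) and 0.24 higher in Mdr2-KO than in wild type (-0.46 to 0.94, adjusted p = 0.913). The Mdr2-KO difference was 0.60 without Mdr2-KO replicate 1 and -0.04 without Mdr2-KO replicate 2, so single arrays set its size and sign. Arrays did not overlap for 1 of 9 clock genes in Mdr2-KO/IL6-KO against wild type, namely Arntl, where 16.3% of all genes did not (9.85% higher and 6.44% lower). In Mdr2-KO against wild type it was also 1 of 9, Nr1d1, where 9.13% of all genes did not overlap (5.49% higher and 3.64% lower). Between the knockout groups it was 0 of 9, against 2.51% of all genes (1.6% higher and 0.908% lower).

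Clock, the partner of Arntl, read 7.58, 7.88, 7.61 and 7.58 in Mdr2-KO/IL6-KO, 7.22, 7.65, 7.52 and 7.46 in Mdr2-KO, and 7.58, 7.70 and 7.58 in wild type. Its groups overlapped, with a difference of 0.20 between Mdr2-KO/IL6-KO and Mdr2-KO (-0.02 to 0.42, adjusted p = 0.9995). Clock lies on chromosome 5, which also holds Abcb4 and Il6, but far from both. Its first base is 76209868, against 8893614 for Abcb4 and 30013114 for Il6.

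Among the repressors, Per1, which also responds acutely to hormones such as glucocorticoids, had the lowest unadjusted p against wild type. It read 6.46, 6.40, 5.80 and 6.57 in Mdr2-KO/IL6-KO, 6.29, 6.51, 6.40 and 5.92 in Mdr2-KO, and 5.80, 6.04 and 5.88 in wild type. In each knockout group 3 arrays lay above all wild-type arrays. Mdr2-KO/IL6-KO replicate 3 lay just below all of them, and Mdr2-KO replicate 4 among them. The differences from wild type were 0.40 in Mdr2-KO/IL6-KO (0.02 to 0.78, adjusted p = 0.286) and 0.37 in Mdr2-KO (-0.01 to 0.75, adjusted p = 0.518).

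Per3 read 6.29, 5.82, 5.76 and 6.44 in Mdr2-KO/IL6-KO, 6.63, 5.74, 6.19 and 6.06 in Mdr2-KO, and 5.96, 6.22 and 6.22 in wild type. Its means differed by 0.08 or less in every comparison, while arrays within a knockout group spanned 1.60-fold (Mdr2-KO/IL6-KO) and 1.85-fold (Mdr2-KO). Per2 lay between 5.77 and 6.31 in Mdr2-KO/IL6-KO, 5.86 and 6.61 in Mdr2-KO, and 6.10 and 6.40 in wild type. Cry1, the partner of the Per proteins in repression, lay between 5.45 and 5.88, 5.61 and 6.16, and 5.72 and 5.96 in the same groups. Both overlapped between all groups, and their differences ran from -0.22 (Per2, Mdr2-KO/IL6-KO minus wild type) to -0.03 (Cry1, Mdr2-KO minus wild type).

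Nr1d1, which encodes the repressor REV-ERB alpha, was the clock gene with the narrowest wild-type values. It read 8.67, 8.81, 8.98 and 9.43 in Mdr2-KO/IL6-KO, 8.90, 9.07, 8.85 and 8.93 in Mdr2-KO, and 8.80, 8.83 and 8.78 in wild type. All Mdr2-KO arrays lay above all wild-type arrays, by a difference in means of 0.14 (-0.17 to 0.44, adjusted p = 0.874). The double-knockout arrays lay on both sides, and replicate 4 was the highest of all.

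Among the output factors, Dbp varied most. It read 8.57, 8.05, 7.74 and 8.999 in Mdr2-KO/IL6-KO, 9.41, 7.19, 8.41 and 8.40 in Mdr2-KO, and 8.42, 8.37 and 8.49 in wild type. In Mdr2-KO/IL6-KO replicates 1 and 4 lay above all wild-type arrays and replicates 2 and 3 below them. In Mdr2-KO replicate 1 lay above them, replicate 2 below, and replicates 3 and 4 among them. The 3 group means were nearly level: 8.34 ± 0.560 in Mdr2-KO/IL6-KO, 8.35 ± 0.909 in Mdr2-KO and 8.43 ± 0.0619 in wild type (SD, n = 4, 4 and 3). The difference of Mdr2-KO from wild type had a 95% interval of -0.92 to 0.78, and ran from -0.43 to 0.31 when single arrays were left out. Tef, a close relative of Dbp, read 7.9997, 7.77, 7.60 and 8.07 in Mdr2-KO/IL6-KO, 8.46, 7.56, 7.97 and 7.83 in Mdr2-KO, and 7.72, 7.98 and 7.86 in wild type. Its groups overlapped and its mean differences lay between -0.10 and 0.10.

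**Figure D1:**
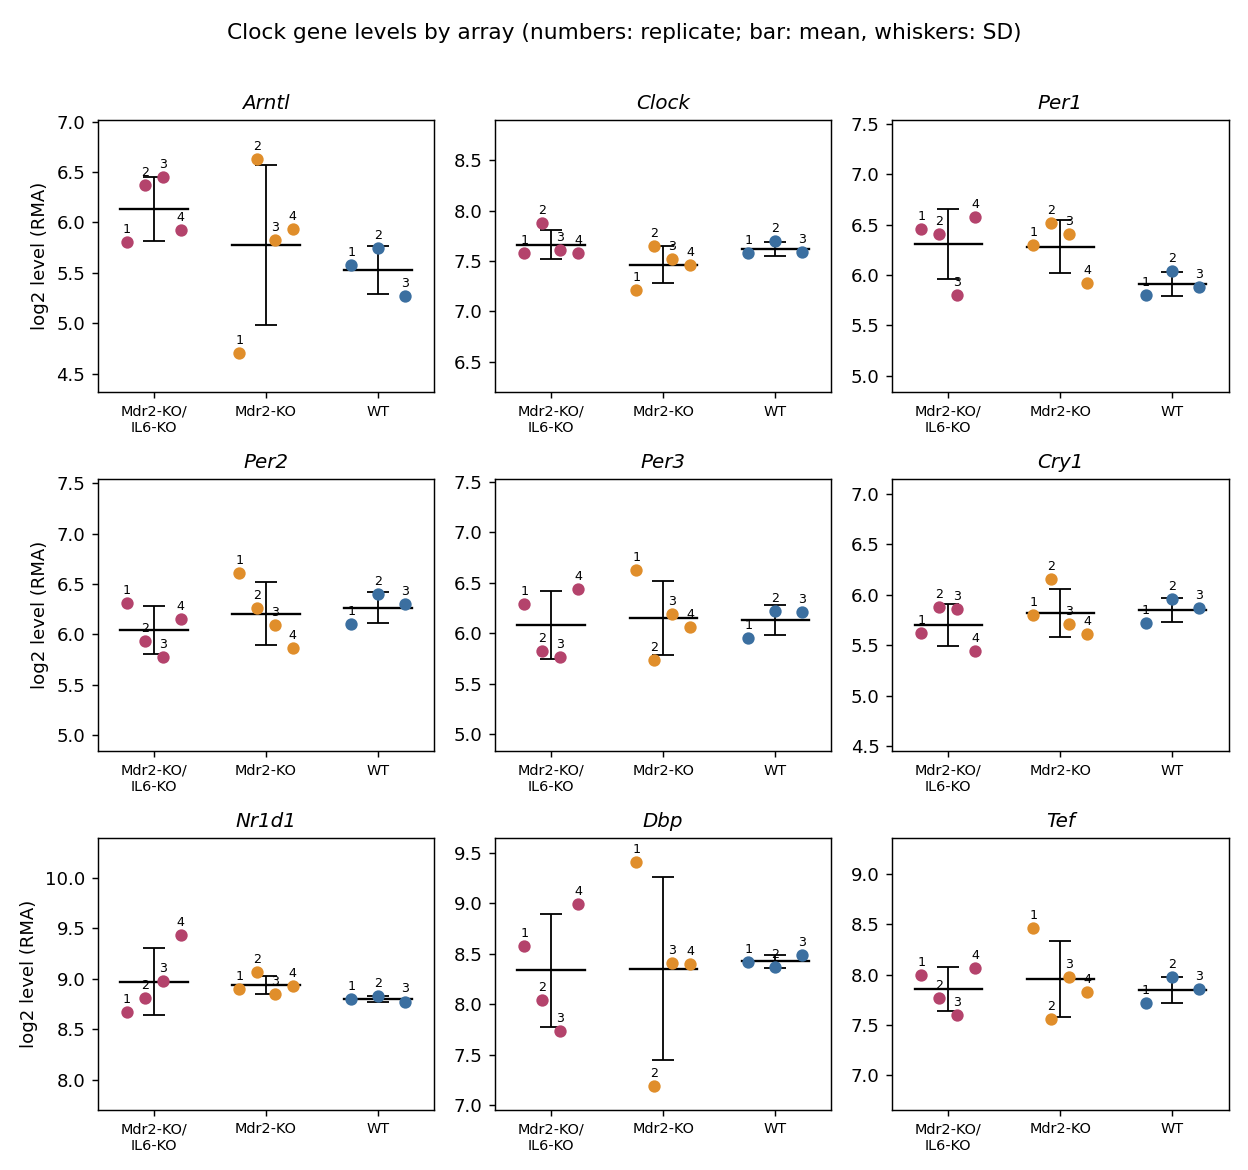
Log2 RMA level (y axes, all of 1 length) of the 9 measured clock genes on each array, by genotype, with replicate numbers, group means and SD whiskers. Arntl and Dbp spread widely in Mdr2-KO, where Dbp ran between 7.19 and 9.41, against 8.37 to 8.49 in wild type.

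**Figure D2:**
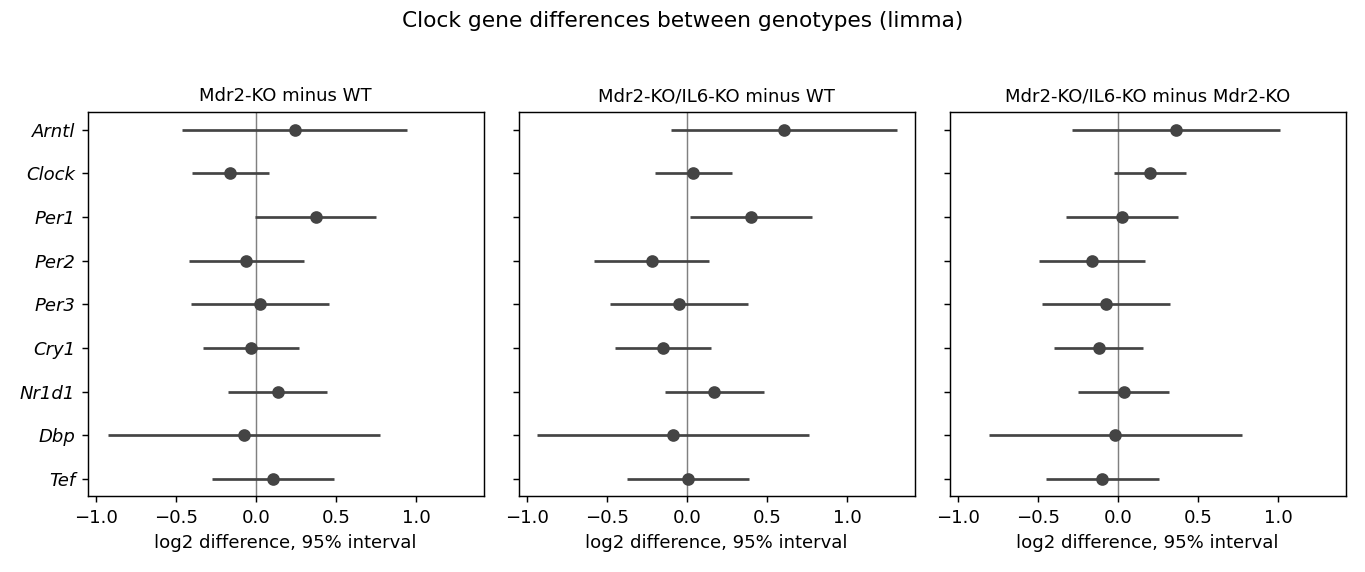
Differences in mean log2 level (x axes) of the 9 clock genes in the 3 comparisons, with 95% intervals from limma. None had an adjusted p under 0.05, and the intervals of Arntl and Dbp were the widest.

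The spread of arrays within groups was set beside that of all 19938 genes. Dbp had a pooled within-group SD of 0.655 on the log2 scale, rank 40 of all genes, and Arntl one of 0.537, rank 97, against a median gene's 0.151. Per3 (0.315) stood at percentile 96.0, Tef (0.273) at 92.6, Per1 (0.272) at 92.4, Per2 (0.254) at percentile 89.99, Nr1d1 (0.211) at 79.98, Cry1 (0.202) at 76.9, and Clock (0.148) at 48.1, below the median. Wide spread was not particular to clock genes. Named after their values were seen, the glucocorticoid-responsive genes Sult1e1 (rank 5), Mt2 (rank 14) and Zbtb16 (rank 23) and the feeding genes Cyp4a14 (rank 8) and G6pc (rank 33) had larger SDs than Dbp. So did Lpin1 (rank 16), listed among genes known to cycle in liver. Their spread was not all separate from that of Dbp. Within groups Cyp4a14 had r = -0.70 with Dbp, Zbtb16 -0.63, G6pc -0.53, Lpin1 -0.45 and Mt2 -0.37, and none was taken for Sult1e1. Leaving out Mdr2-KO replicate 1 lowered the SD of Arntl to 0.336, and leaving out Mdr2-KO/IL6-KO replicate 4 lowered that of Nr1d1 to 0.103.

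By genotype, 2 of the 9 clock genes had their largest SD in Mdr2-KO/IL6-KO, 7 in Mdr2-KO and 0 in wild type, while over all genes the shares were 28.1%, 48.1% and 23.8%. The median SD of the clock genes was 0.317 in Mdr2-KO/IL6-KO, 0.315 in Mdr2-KO and 0.122 in wild type, and that of all genes 0.127, 0.155 and 0.110. Arntl and Dbp stood at percentiles 99.8 and 99.9 of SD in Mdr2-KO, and 89.3 and 22.5 in wild type. Wild type had 3 arrays, and the difference in spread between genotypes was not tested.

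**Figure D3:**
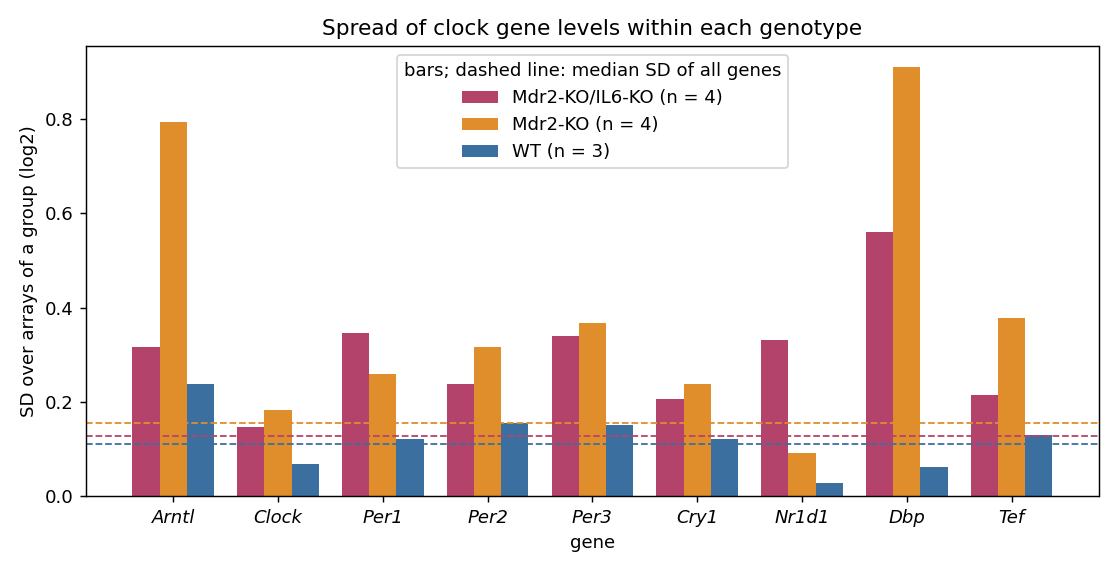
SD over the arrays of each genotype (bars, log2 scale, from 0) for the 9 clock genes, with the median SD of all genes in each genotype as dashed lines. Dbp had an SD of 0.560 in Mdr2-KO/IL6-KO and 0.909 in Mdr2-KO, against 0.0619 in wild type.

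For Dbp, Arntl, Tef and Per3 the widest contrast within a genotype lay between Mdr2-KO replicates 1 and 2. Dbp was 4.66-fold higher in replicate 1 than in replicate 2, Tef 1.87-fold and Per3 1.85-fold higher, while Arntl was 3.78-fold, Clock 1.35-fold and Cry1 1.28-fold higher in replicate 2. Per2 was 1.28-fold higher in replicate 1, and Per1 (1.16-fold) and Nr1d1 (1.12-fold) were higher in replicate 2. Per1 and Nr1d1 spanned more within Mdr2-KO/IL6-KO, 1.71-fold and 1.70-fold. Of all genes 0.657% differed at least 2-fold between these arrays, and 2 of the 9 clock genes did. The 2 arrays were singled out because clock genes lay far apart in them, so that count follows in part from the choice. Such contrasts were not particular to clock genes. Named after their values were seen, Cyp4a14 (8.29-fold, rank 1 of all genes), G6pc (4.66-fold, rank 4) and Tsc22d3 (3.18-fold, rank 22) were higher in replicate 2. Pck1 was 1.55-fold higher in replicate 1. Replicate 2 also had the highest array median, 5.23, and replicate 1 had 5.18. After median centring of the arrays, the within-group r of Dbp with Arntl was -0.90, and -0.93 after quantile normalization. In Mdr2-KO/IL6-KO the arrays split likewise, with Dbp, Tef and Per3 higher in replicates 1 and 4 and Arntl higher in replicates 2 and 3. In each of the 3 genotypes the array with the highest Arntl had the lowest Dbp.

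**Figure D4:**
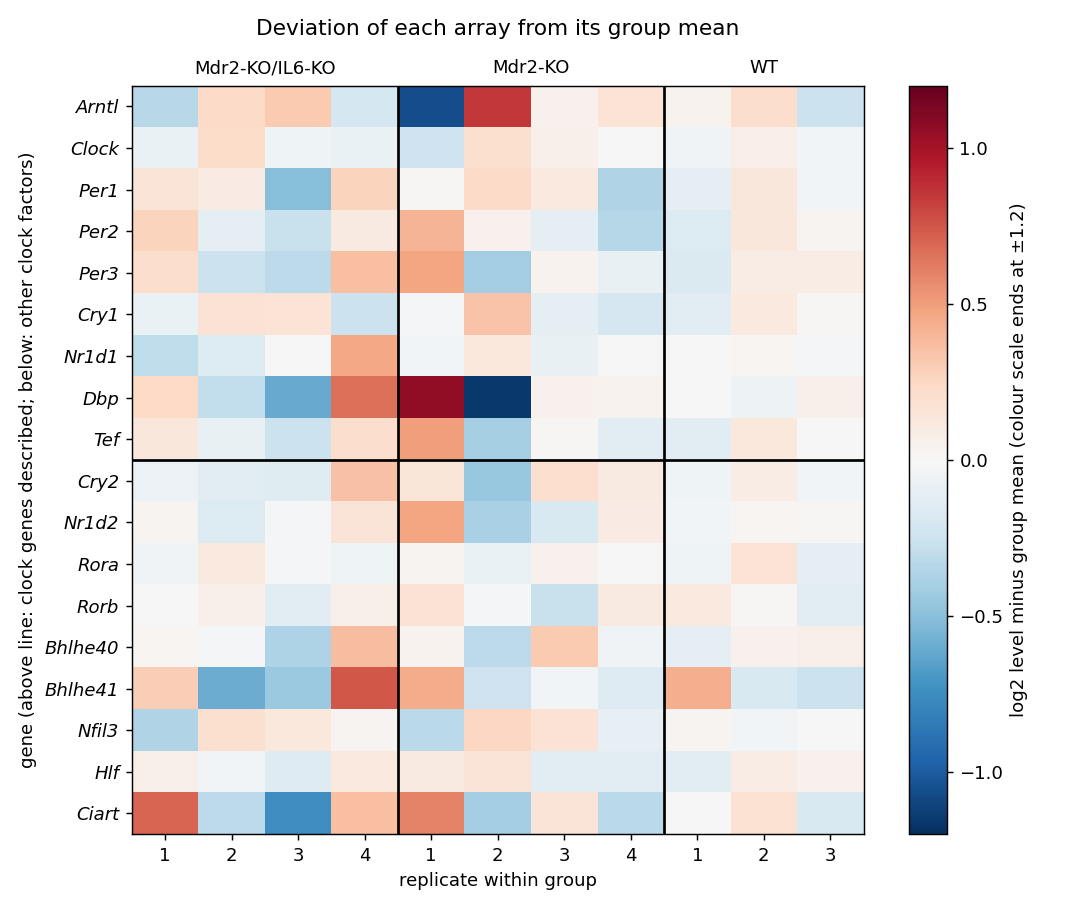
Log2 level minus the group mean (colour, red higher) for the 9 clock genes, above the line, and 9 other clock factors, below it, in each array (columns by genotype and replicate). Mdr2-KO replicates 1 and 2 show opposite colours for Arntl against Dbp, Tef and Per3.

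Whether clock genes moved together within genotypes was tested on deviations from the group means over the 11 arrays, with an exact two-sided permutation of arrays within groups (3456 orders) and adjustment over 36 pairs. One pair passed, Per3 with Tef (r = 0.96, rho = 0.96, exact p = 0.000289, the smallest these orders can give, adjusted p = 0.0104). Without the 2 arrays whose Per3 level, before group means were removed, lay farthest from the median of all 11 arrays, their r was 0.92. The pair no longer passed without Mdr2-KO replicate 4 (r = 0.96, adjusted p = 0.125), nor without both Mdr2-KO replicates 1 and 2 (r = 0.95, adjusted p = 0.125), a setting chosen after seeing the data. Only 288 orders remain without both, and even the lowest exact p there, 0.00347 (Per1 with Tef), gave an adjusted p of 0.125. A single pair could therefore not pass in that setting, whatever its r.

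At an unadjusted exact p under 0.05, 8 of 36 pairs stood out. Dbp ran with Per3 (r = 0.93, rho = 0.91, exact p = 0.00405, adjusted p = 0.0729), with Tef (r = 0.93, rho = 0.85, exact p = 0.00839, adjusted p = 0.0833) and inversely with Arntl (r = -0.93, rho = -0.95, exact p = 0.0159, adjusted p = 0.0833). Without the 2 arrays farthest from the median (of Per3, Dbp and Arntl in turn) these became 0.91, 0.84 and -0.79. Arntl also ran against Tef (r = -0.91, rho = -0.76, exact p = 0.0116) and Per3 (r = -0.88, rho = -0.85, exact p = 0.0116) and with Clock (r = 0.83, rho = 0.75, exact p = 0.0162), each at an adjusted p of 0.0833, and without 2 arrays at -0.65, -0.79 and 0.55. Clock ran against Dbp (r = -0.76, rho = -0.72, exact p = 0.0440, adjusted p = 0.193; -0.67 without 2 arrays). These 7 pairs did not pass the adjustment.

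Without wild-type replicate 2, 5 pairs passed, Per3 with Tef among them. With each of the other 8 clock genes Nr1d1 had an r of at most 0.19 in size, with r = 0.07 with Dbp (rho = -0.30, exact p = 0.865, adjusted p = 0.957, -0.53 without 2 arrays) and 0.13 with Arntl (rho = 0.40, exact p = 0.623, adjusted p = 0.897, -0.04 without 2 arrays). The Per1 values also ran apart from Arntl (r = -0.07, rho = -0.07, exact p = 0.859, adjusted p = 0.957, -0.51 without 2 arrays), and were nearest to Per2 (r = 0.65, rho = 0.67, exact p = 0.0715, adjusted p = 0.198, 0.51 without 2 arrays).

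**Figure D5:**
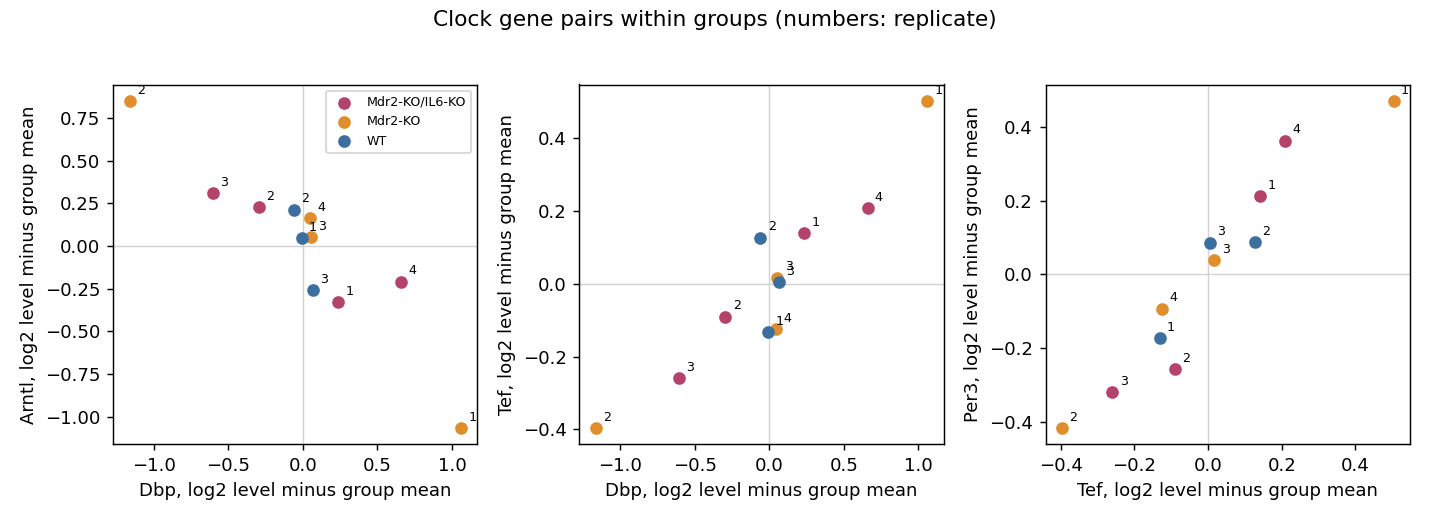
Deviations from the group mean (log2, both axes) of Arntl against Dbp, Tef against Dbp, and Per3 against Tef, 1 point per array, coloured by genotype and numbered by replicate. Arntl falls as Dbp rises (r = -0.93), and Per3 rises with Tef (r = 0.96), with Mdr2-KO replicates 1 and 2 at the ends.

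The genes most like Arntl and Dbp were ranked by the same r among 9968 other genes with a mean level above the median gene, as a description over 11 shared arrays. Tef was the fifth most like Dbp, and Arntl the third most opposed to it. Dbp was in turn the fifth most opposed to Arntl. The others most like Dbp were Fbxo28 (r = 0.95), Gdap10 (0.95), Zcchc2 (0.94) and Ube2g1 (0.94), and those most opposed were Gfod2 (-0.95), the threonyl-tRNA synthetase Tars (-0.94), the mitochondrial protease subunit Clpx (-0.91) and Fmnl2 (-0.91). Most like Arntl were She (0.92), Clpx (0.92), Blcap (0.92), the choline kinase Chka (0.92) and Tars (0.91), and most opposed Gdap10 (-0.97), the haem-binding repressor Bach1 (-0.96), the matrix protein Efemp1 (-0.95) and the adenylate kinase Ak4 (-0.94).

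Other genes of the clock were read from a list of 10, of which 9 were measured. None passed in any comparison, at an unadjusted p under 0.05 in 0 (Mdr2-KO against wild type), 1 (Mdr2-KO/IL6-KO against wild type) and 1 (Mdr2-KO/IL6-KO against Mdr2-KO), and their median log2 differences were 0.02, -0.01 and -0.01, against -0.01, -0.00056 and 0.01 over all genes. Ciart, a repressor of the Arntl and Clock pair, read 6.51, 5.49, 5.07 and 6.18 in Mdr2-KO/IL6-KO, 6.82, 5.81, 6.38 and 5.91 in Mdr2-KO, and 6.48, 6.66 and 6.30 in wild type. Its log2 difference was -0.67 between Mdr2-KO/IL6-KO and wild type (adjusted p = 0.312), with overlapping arrays. The D-box repressor Nfil3 had a log2 difference of -0.31 between Mdr2-KO/IL6-KO and Mdr2-KO (adjusted p = 0.9995).

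Within genotypes several of these genes varied with the core genes. Of 7 above the median level, 4 had an r of at least 0.7 in size with Dbp, where 6.99% of all such genes did: Nr1d2 (0.88), the paralogue of Nr1d1, Cry2 (0.83), Ciart (0.78) and Nfil3 (-0.71). With Arntl 3 did, against 5.12% of all such genes, namely Nr1d2 (-0.88), Nfil3 (0.78) and Ciart (-0.73). The other measured ones were Bhlhe40 (0.69 with Dbp), Rora (0.08) and Hlf (0.17), and, below the median level, Rorb and Bhlhe41. Of 5 genes of clock protein turnover above that level none reached 0.7 in size with Arntl or Dbp. Usp2 came just short, with r = -0.697 with Arntl and 0.58 with Dbp. Of 7 measured, 0 passed in any comparison (at an unadjusted p under 0.05, 0, 1 and 0).

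Of 18 genes known to cycle in liver 13 were measured, and 0 passed in any comparison, with 3, 4 and 3 at an unadjusted p under 0.05. Their median log2 differences were -0.01 in Mdr2-KO against wild type, 0.02 in Mdr2-KO/IL6-KO against wild type and -0.03 in Mdr2-KO/IL6-KO against Mdr2-KO. By contrast 8 of the 13 had an r of at least 0.7 in size with Dbp, and 8 with Arntl, where 6.99% and 5.12% of all genes above the median level did. The 2 counts are not separate, because 89.8% of such genes had opposite signs of r with Arntl and Dbp. They were also not repeated without Mdr2-KO replicates 1 and 2, so how far they rest on the contrast of those arrays was not tested. Below 0.7 with Dbp were Ppara (0.46), Lpin1 (-0.45), Tfrc (-0.33), Cyp7a1 (-0.24) and Alas1 (0.11). Named after their values were seen, Upp2, a uridine phosphorylase, had r = 0.91 with Dbp, Coq10b 0.89, and the cell cycle kinase Wee1, a known target of Arntl and Clock, 0.88. Wee1 read 7.64, 6.67, 7.28 and 7.73 in Mdr2-KO/IL6-KO, 8.01, 6.25, 7.28 and 7.51 in Mdr2-KO, and 6.58, 6.92 and 6.71 in wild type. Its highest and lowest values of all were those of Mdr2-KO replicates 1 and 2, the arrays at the ends for Dbp.

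Markers of liver cell types were read as well. The mean log2 level of 6 of 7 hepatocyte markers lay between 12.1 and 12.2 in Mdr2-KO/IL6-KO, 12.2 and 12.3 in Mdr2-KO, and 12.2 and 12.3 in wild type. That of 6 of 7 bile duct markers lay between 6.12 and 6.44, 6.08 and 6.39, and 5.28 and 5.37 in the same groups, and that of 7 stellate cell and fibroblast markers between 7.67 and 7.93, 7.48 and 7.75, and 6.81 and 7.12. The mean of 7 macrophage markers lay between 7.98 and 8.22, 7.77 and 8.32, and 7.65 and 8.75, widest in wild type. That of 6 of 7 lymphocyte markers lay between 4.43 and 4.64, 4.499 and 4.76, and 4.62 and 5.17, and that of 7 endothelial markers between 7.79 and 7.98, 7.67 and 7.85, and 7.47 and 7.75. Of bile duct markers 4 of 6, and of stellate and fibroblast markers 4 of 7, were called higher in each knockout group than in wild type by limma. In Mdr2-KO/IL6-KO against wild type the lymphocyte gene Cd8a fell (log2 difference -0.58, adjusted p = 0.0464) and the endothelial gene Lyve1 rose (0.66, adjusted p = 0.0357). Their part in the clock gene levels was not tested.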

How the data were processed

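The authors deposited 1 table of log2 levels for 35557 Affymetrix probe sets on 11 arrays. They used RMA and the Partek software, per the submitters' processing notes, and settings are not given in the sources used here. Array medians lay between 5.09 and 5.23, and no further normalization was applied. Names came from GEO's platform annotation, updated by Entrez identifier against RefSeq (GRCm38.p6). The 21789 with 1 symbol gave 19938 genes, each taken as the probe set with the highest mean. Levels are not comparable between genes.

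One limma 3.58.1 model (R 4.3.3) with a mean per group was fitted to all genes, with eBayes moderation and two-sided p-values adjusted by Benjamini-Hochberg over all genes. It was tested on simulated data in which each gene had the same SD in all groups. That test does not cover groups that differ in SD, as those of Dbp do. Intervals are 95% and unadjusted. No depth applies to arrays, and their number limits the precision. The labels give no batch or pairing, and replicate numbers follow sample order, so the p-values reflect only how these samples spread, possibly for technical reasons.

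The genes named were the 10 clock genes, the other clock factors, list genes that passed, and the 5 most like and 5 most opposed to Arntl and to Dbp; exceptions are stated. Genes, lists and tests were chosen with earlier results of these data known. Alternatives were the mean of probe sets, only genes above the median level, quantile normalization, median centring, eBayes with trend and robust, only the compared groups, an adjusted p under 0.01, Spearman's rho, and leaving out each array. Leaving out Mdr2-KO replicates 1 and 2 together was added after seeing the data.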

Additional observations from a re-analysis of the deposited data

Results flagged for a closer look

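In 2 groups of 4 arrays, 74 genes (the clock genes, the genes of the lists of clock, rhythmic, glucocorticoid and feeding genes, and those most like Arntl or Dbp) were searched for an array far from the other 3, measured as its gap to the nearest array over the range of the group. Of 148 cases 13 exceeded the 95% critical value of Dixon's test, and chance gives about 5% of groups. Among the clock genes the 1 such case of 18 was Clock in Mdr2-KO/IL6-KO replicate 2, at 7.88 (0.911 of the range). For Cry2 they were Mdr2-KO/IL6-KO replicate 4, the highest at 7.45 (0.840), and Mdr2-KO replicate 2, the lowest at 6.56 (0.852).

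The other cases in Mdr2-KO/IL6-KO were all low: Insig2 in replicate 3 at 10.356 (0.8999), Pck1 in replicate 3 at 10.8 (0.883) and Chka in replicate 4 at 6.91 (0.921). For Insig2 the whole range of the group was only 1.07-fold. In Mdr2-KO replicate 1 Gys2 was high at 10.4 (0.904), Pparg high at 7.58 (0.940) and Pdk4 low at 5.42 (0.834). In Mdr2-KO replicate 2 Fgf21 was high at 6.03 (0.880). In Mdr2-KO replicate 3 Fbxl21 was high at 5.005 (0.866) and Timeless low at 5.11 (0.867), and in replicate 4 Cpt1a was low at 9.89 (0.857).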

How the results depend on the processing

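The count of 0 clock genes passing held in each of the 3 comparisons under all 7 other settings, without each array in turn, and without both Mdr2-KO replicates 1 and 2. Of these settings, an adjusted p under 0.01 could only give 0 again. Each measured clock gene had 1 probe set, so the mean of probe sets left its values unchanged. The count of correlated pairs, 1, was 2 after median centring, 0 at an adjusted p under 0.01, between 0 and 5 without single arrays, and 0 without both Mdr2-KO replicates 1 and 2 (added after seeing the data), where Per3 with Tef kept r = 0.95 and fewer orders remain. Over all genes, the 252 passing in Mdr2-KO against wild type were 138 with only the compared groups and 94 at an adjusted p under 0.01, and 148 to 323 without single arrays. The 836 in Mdr2-KO/IL6-KO against wild type were 342 at an adjusted p under 0.01 and 464 to 989 without single arrays. The lowest of these came without wild-type replicate 2 in Mdr2-KO and without wild-type replicate 1 in Mdr2-KO/IL6-KO. The 1 between the knockout groups was 4 among genes above the median level, 2 after median centring, 2 with trend and robust, and 1 to 5 without single arrays. The cause of these shifts was not tested. No paired analysis was possible because the labels give no replicate numbers shared between groups. With 3 or 4 arrays a group, 1 spread in the model for groups that differ in SD, and no hour of sampling in the labels, small differences in mean of the most variable genes cannot be read; the interval for Dbp in Mdr2-KO against wild type ran from -0.92 to 0.78.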

Other observations

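Genes that respond to hormones and feeding, which also set the liver clock, were read beside it. Of 10 glucocorticoid-responsive genes 0 rose and 2 fell in Mdr2-KO against wild type, the metallothioneins Mt1 (log2 difference -1.998, adjusted p = 0.0155) and Mt2 (-2.48, adjusted p = 0.0231), and the same 2 fell in Mdr2-KO/IL6-KO against wild type (-3.09, adjusted p = 0.000456, and -3.82, adjusted p = 0.000671). Both also respond to metals. Tsc22d3 and Fkbp5, standard glucocorticoid targets, did not pass. Of 12 measured fasting and feeding genes, Fgf21, a fasting hormone, fell in Mdr2-KO (-0.98, adjusted p = 0.0191) and in Mdr2-KO/IL6-KO (-0.96, adjusted p = 0.0104) against wild type, and Pdk4, a brake on glucose oxidation, rose in Mdr2-KO/IL6-KO (1.17, adjusted p = 0.00583). Between the knockout groups limma called 0 genes of either list, with 2 of each at an unadjusted p under 0.05. Within genotypes 0 of 9 glucocorticoid genes above the median level reached an r of 0.7 in size with Arntl or Dbp, and of 11 feeding genes 2 did with Arntl and 1 with Dbp. Of all such genes 5.12% did with Arntl and 6.99% with Dbp, and lists this short cannot be told apart from shares of that size. Below the limit, Zbtb16 had r = -0.63 with Dbp, Tsc22d3 -0.55, Errfi1 -0.55, Fkbp5 -0.52, Mt1 -0.51, Mt2 -0.37 and Tat -0.29. Only Sgk1 (0.20) and Dusp1 (0.06) were positive.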
